A study of Homo sapiens with 6 samples.

Results

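Unconventional myosins are actin motors that, unlike the class II myosins of muscle and stress fibres, do not assemble into thick filaments. Described here are MYO10, MYO1C, MYO1D, MYO1E, MYO5A, MYO6, MYO9A, MYO9B and MYO18A, which are 9 of the 61860 genes in a count table from A498 cells, an established line from a kidney carcinoma. They were chosen by symbol, as filopodial, membrane-linked and cargo myosins, with the values of the same comparison in view, so their own values are a description and support nothing further. All 9 symbols were found in the table, and all 9 genes had enough counts to enter the fit over all genes. The study compared RNA from A498 cells after knockdown of PTPRZ1, a receptor-type tyrosine phosphatase, with RNA from control cells, in 3 libraries each. The control group, PTPRZ-nc, is labelled as the control of a knockdown made with a plasmid, and the knockdown group, PTPRZ-Si, as made with siRNA, so the means named in the labels differ between the groups. Both groups were grown in MEM medium with serum and carry the same treatment label of transfection or infection. The labels name no further allele or agent. Whether the libraries of a group stem from separate cultures is not in the labels, and the p-values below therefore measure a spread between libraries that may be technical.

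Libraries held 13726908 to 21469746 counts, and 15476 genes were tested with edgeR's quasi-likelihood test. The target gene PTPRZ1 (chr7:121873089-122062036, GRCh38) had 0 counts in all 6 libraries, which allows up to 0.0607 CPM over the 3 control libraries and up to 0.0527 CPM over the 3 knockdown libraries. These limits cover counting error only. With no count in the controls, the table gives no check of the knockdown. Levels are given as CPM, the counts of a gene relative to the library total after TMM scaling. Of the 6 renal markers, PAX8, PAX2, CDH6 and VIM were expressed and CA9 lay at 2.30 to 3.58 CPM. PAX8, PAX2 and CDH6 rose and VIM fell, and the summed level of the list was 1516 to 1663 CPM in the controls and 1490 to 1595 CPM in the knockdown. The 4 leukocyte markers summed to at most 2.51 CPM, with PTPRC and CD3E at 0, and the 4 endothelial markers to at most 2.58 CPM, with CDH5 at 0. The 5 fibroblast and muscle markers summed to 33.3 to 44.4 CPM in the controls and 23.7 to 26.8 CPM in the knockdown, nearly all of it COL1A1, which fell. The 5 melanocyte and neuronal markers, cells in which MYO5A is well known, summed to 6.65 to 6.89 and 7.73 to 9.50 CPM, and RBFOX3 among them rose. The part of these markers in the myosin values was not tested.

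Each myosin heavy chain carries a motor domain that binds actin and hydrolyses ATP, a neck that binds light chains or calmodulin, and a tail that decides what is moved or held. MYO10 walks along bundled actin to the tips of filopodia, and its MyTH4 and FERM domains bind integrins and other receptors. MYO1C, MYO1D and MYO1E bind membrane lipids and link membranes to actin, MYO5A carries organelles towards the barbed ends of filaments and MYO6 moves the opposite way. MYO9A and MYO9B hold a RhoGAP domain that switches off RHOA and related GTPases, and MYO18A, whose motor has little or no ATPase activity, binds actin and the Golgi protein GOLPH3. In kidney tubule cells such motors serve the brush border, endocytosis and cell junctions.

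The 9 genes lie on 5 chromosomes in the GENCODE 29 annotation of GRCh38. MYO10 (ENSG00000145555) spans chr5:16661914-16936276 on the minus strand. The class I genes are MYO1C (ENSG00000197879, chr17:1464186-1492812), MYO1D (ENSG00000176658, chr17:32492522-32877177) and MYO1E (ENSG00000157483, chr15:59132434-59372900), all on the minus strand. MYO5A (ENSG00000197535) spans chr15:52307283-52529050 on the minus strand and MYO6 (ENSG00000196586) chr6:75749192-75919537 on the plus strand. MYO9A (ENSG00000066933) lies at chr15:71822289-72118577, minus strand, MYO9B (ENSG00000099331) at chr19:17075781-17214537, plus strand, and MYO18A (ENSG00000196535) at chr17:29071124-29180412, minus strand. Counts were made over all exons of a gene without using strand. Overlaps were computed in GENCODE 29 and not in Ensembl release 107, which was used for counting. The exons of MYO10, MYO1C, MYO5A and MYO6 overlap those of no other annotated gene. Those of MYO18A share 1394 of 15047 bases (9.26%) with TIAF1 on the same strand, and those of MYO1D, MYO1E, MYO9A and MYO9B share at most 2.05% with any 1 gene on the opposite strand, from which their reads cannot be told apart.

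The promoters of MYO10, the gene with the largest difference of the 9, and of MYO9B, the gene of the 9 that was lower after the knockdown, are shown to let their sequence be read beside these opposite directions. They are the 250 bases before the RefSeq start of each gene (GRCh38.p14), at chr5:16936289-16936538 on the minus strand for MYO10 and chr19:17075527-17075776 on the plus strand for MYO9B. Capitals mark GGGCGG, read on either strand, the GC box that Sp1 and KLF factors bind.
MYO10: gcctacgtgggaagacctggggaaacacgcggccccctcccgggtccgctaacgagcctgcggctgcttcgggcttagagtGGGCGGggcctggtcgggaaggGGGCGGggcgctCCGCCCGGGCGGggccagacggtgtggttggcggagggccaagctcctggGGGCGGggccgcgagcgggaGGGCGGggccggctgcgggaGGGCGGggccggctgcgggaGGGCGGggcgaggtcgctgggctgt
MYO9B: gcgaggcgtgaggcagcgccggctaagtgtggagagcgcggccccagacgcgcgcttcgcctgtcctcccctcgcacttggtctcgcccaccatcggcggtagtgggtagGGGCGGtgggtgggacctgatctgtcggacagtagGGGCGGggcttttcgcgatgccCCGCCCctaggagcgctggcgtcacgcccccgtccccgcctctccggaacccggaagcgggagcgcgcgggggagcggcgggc

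The MYO10 window held 8 copies of GGGCGG and was 78.8% G and C, and the MYO9B window held 3 and was 74.0% G and C, against a median of 58.0% over all windows. The 4 copies of MYO10 nearest the start begin 85, 65, 45 and 25 bases before it, so they follow each other at an even step of 20 bases. All 9 genes matched the promoter table, with 14 windows in all because MYO1C and MYO18A have several starts. GGGCGG stood in 12 of the 14 windows and in 8 of the 9 genes, all but MYO1E, and in 42.6% of 35114 windows of the same length from the whole table. It was therefore present in genes that were higher, lower and neither. Of the other motifs searched on both strands, TGANTCA (the AP-1 site) was in 1 window, of MYO1C, and in 6.57% of all windows, and CACGTG (an E-box) was in 1 window each of MYO9A and MYO18A and in 6.35% of all windows. GGAATG (the TEAD site) was in none of the 14 and in 11.9% of all windows. The CArG box of SRF was in 1, that of MYO1E, and in 1.16% of all windows. A match is a description of letters and not a bound site, and no match says only that the letters are not in the window.

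MYO10 stood at 342, 335 and 334 CPM in control libraries 1 to 3 and at 606, 605 and 633 CPM in knockdown libraries 1 to 3. All 3 knockdown libraries were above all 3 controls, and the lowest of them was far from the highest control. The means were 337 ± 4.21 CPM (SD, n = 3) and 615 ± 16.1 CPM (SD, n = 3), which is 1.83-fold higher with a 95% interval of 1.73 to 1.93, or a log2 fold change (log2FC) of 0.87 (SE 0.037). Of all 15476 tested genes, 316 had a larger log2FC than MYO10, and 219 of these passed the test as higher. RNA of bulk cells was measured, so more RNA per cell and more cells with much of it cannot be told apart.

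**Figure D1:**
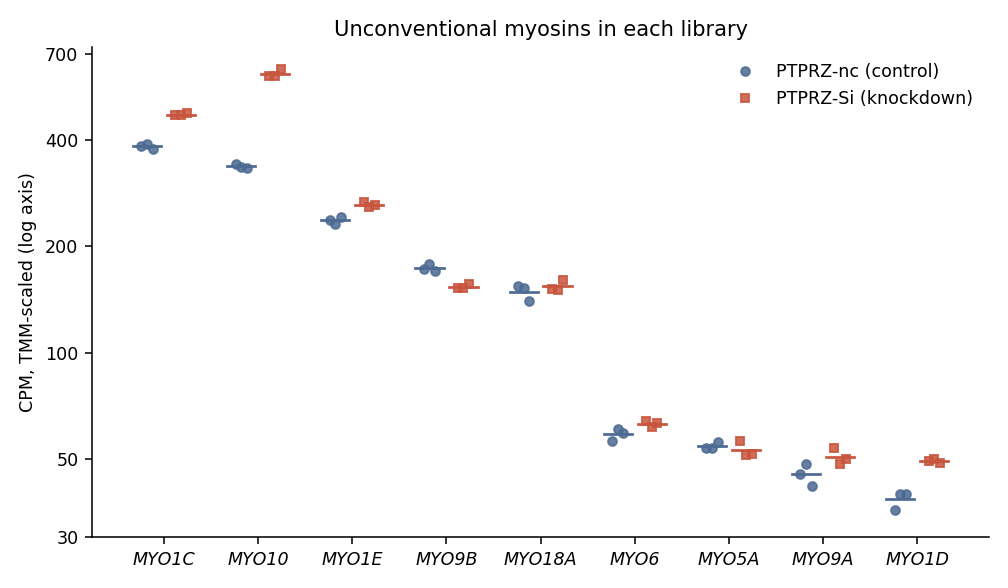
Level of the 9 unconventional myosins in each library as CPM scaled by TMM, on a log axis, ordered by the control mean. Circles are the 3 PTPRZ-nc libraries, squares the 3 PTPRZ-Si libraries, and lines the group means; MYO10 stands apart, with 334 to 342 CPM in the controls and 605 to 633 CPM in the knockdown.

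The 3 class I myosins were also higher after the knockdown, each by less than MYO10. MYO1C, which tethers GLUT4 and other exocytic vesicles to the membrane, measured 386, 389 and 377 CPM in the controls and 469, 469 and 477 CPM in the knockdown, a log2FC of 0.30 (SE 0.037). MYO1D, a class I motor of endosomes and of left-right asymmetry, measured 35.8, 39.9 and 39.9 CPM in the controls and 49.2, 49.9 and 48.6 CPM in the knockdown, a log2FC of 0.35 (SE 0.065). For both genes every knockdown library was above every control, with little spread within the groups. MYO1E, which works in endocytosis and in the podocytes of the kidney, measured 238, 230.5 and 242 CPM in the controls and 267, 258 and 262 CPM in the knockdown. Its groups did not overlap either, but the distance was small, a log2FC of 0.15 (SE 0.041). MYO1E passed the threshold over all 6 libraries (edgeR, adjusted p = 0.0128) and not without knockdown library 1 (0.0859) or knockdown library 3 (0.0501).

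The 2 organelle carriers differed little between the groups. MYO5A measured 53.8, 53.7 and 55.8 CPM in the controls and 56.1, 51.4 and 51.6 CPM in the knockdown, with the groups overlapping and a log2FC of -0.04 (95% interval -0.17 to 0.08). MYO6 measured 56.4, 60.9 and 59.2 CPM in the controls and 64.1, 61.7 and 63.2 CPM in the knockdown, a log2FC of 0.10 (95% interval -0.02 to 0.22). The MYO6 groups did not overlap, by less than the spread within either group. Neither gene passed the threshold, and the intervals leave room for a change of the size seen in MYO1E for MYO6, and not for one of the size seen in MYO1C for either.

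The 2 RhoGAP myosins had differences of opposite sign. MYO9B, which inactivates RHOA, measured 172, 178 and 170.5 CPM in the controls and 152, 152 and 156 CPM in the knockdown, so all knockdown libraries were below all controls. Its log2FC was -0.18 (SE 0.043), the only one of the 9 to pass the threshold as lower. MYO9A, its close relative in epithelial junctions, measured 45.2, 48.3 and 42.0 CPM in the controls and 53.8, 48.3 and 50.1 CPM in the knockdown, a log2FC of 0.17 (SE 0.068). The highest control and the lowest knockdown library of MYO9A, both numbered 2, nearly touched. MYO9A missed the threshold (edgeR, adjusted p = 0.0799) and passed it without control library 2 (0.019) and without both libraries numbered 2 (0.00794, log2FC 0.25). MYO18A measured 154, 152 and 139.6 CPM in the controls and 152, 150.4 and 161 CPM in the knockdown, with the groups overlapping and a log2FC of 0.06 (95% interval -0.05 to 0.16).

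Over the 9 genes, 4 were past the threshold as higher (MYO10, MYO1C, MYO1D and MYO1E), against 14.0% of all tested genes, and 1 as lower (MYO9B), against 13.4%. Together these are 5 of 9, against 27.4% of all tested genes in either direction. The groups did not overlap in 7 of 9 genes, against 40.8% of all tested genes. Because the 9 genes were picked with this comparison known, nothing is read from these shares. Their median log2FC was 0.15, beside 0.001 over all tested genes, and the median fold of all genes past the threshold was 1.26, which MYO10 and MYO1D exceeded.

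**Figure D2:**
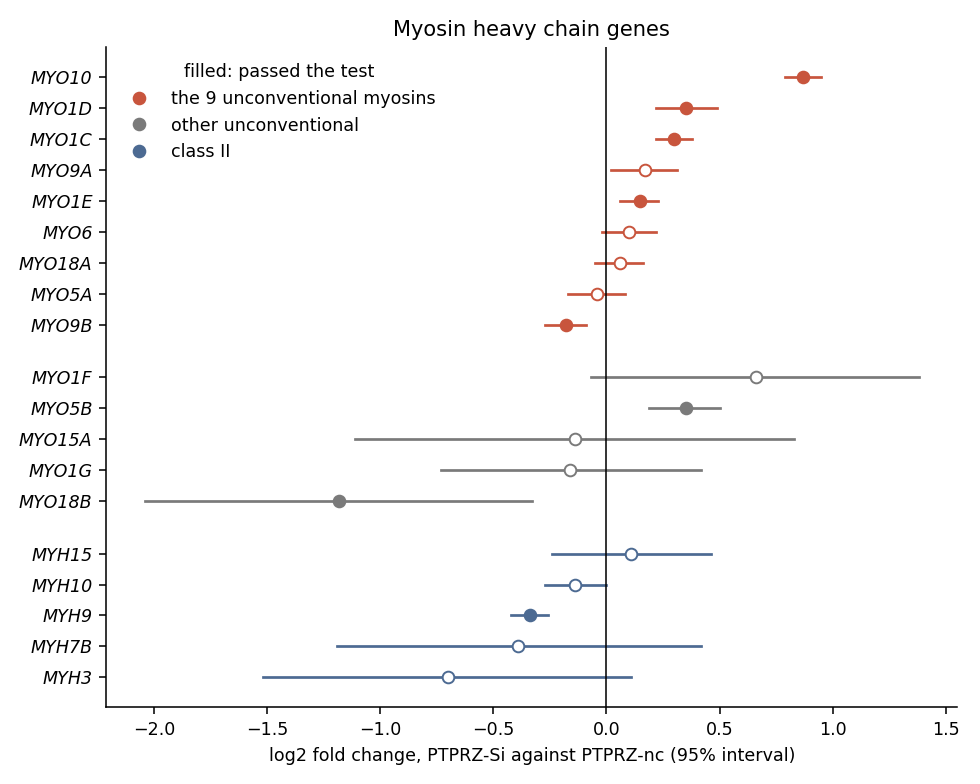
Log2 fold change of the 9 unconventional myosins and of other myosin heavy chain genes with enough counts to test, PTPRZ-Si against PTPRZ-nc, with the 95% interval of the fit as a line. Filled points passed edgeR's test at an adjusted p of 0.05 or less; the 9 unconventional myosins are red, the other unconventional myosins grey and class II blue, and MYO10 at 0.87 lies to the right of all other points, while MYH9 lies at -0.34.

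Divided by the summed exon length of each gene, levels can be set side by side between genes. MYO1C was the highest of the 24 unconventional myosin genes in both groups, at 47.3 CPM per kilobase in the controls and 58.2 in the knockdown. In the controls MYO1E followed with 26.0 and MYO10 with 24.1 CPM per kilobase. In the knockdown MYO10 came second with 44.0, and MYO1E measured 28.8 CPM per kilobase. Below them came MYO9B (17.5 in the controls and 15.4 in the knockdown), MYO18A (9.87 and 10.2), MYO6 (6.70 and 7.17), MYO1D (4.70 and 6.01), MYO5A (4.19 and 4.08) and MYO9A (2.23 and 2.51 CPM per kilobase). No library of any of the 9 overlapped a library of its neighbour among the 9 in either group, although MYO1D and MYO5A nearly met in the controls. With coding length in place of exon length MYO10 ranked 4th in the controls and 2nd in the knockdown. Exon lengths come from all transcripts in GENCODE 29, which is not the release used for counting. An isoform that uses only part of these exons would have its level understated.

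All 24 unconventional myosin genes together summed to 1730 ± 8.75 CPM (SD, n = 3) in the controls and 2202 ± 29.5 CPM (SD, n = 3) in the knockdown. Of the difference of 472 CPM, MYO10 made up 278 CPM, or 58.9%, and MYO1C 18.6%. The share of MYO10 in this sum was 19.3% to 19.7% in the controls and 27.5% to 28.4% in the knockdown. Without MYO10, the other 8 genes summed to 1140 ± 13.5 CPM and 1258 ± 15.0 CPM (SD, n = 3 each), a ratio of 1.10. Per kilobase of exon, the share of MYO10 was 14.3% ± 0.17 in the controls and 20.9% ± 0.35 in the knockdown (SD, n = 3 each), and MYO10 made up 47.7% of the difference in the sum. The share of MYO9B in the summed CPM was 10.0% on average in the controls and 6.97% in the knockdown.

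**Figure D3:**
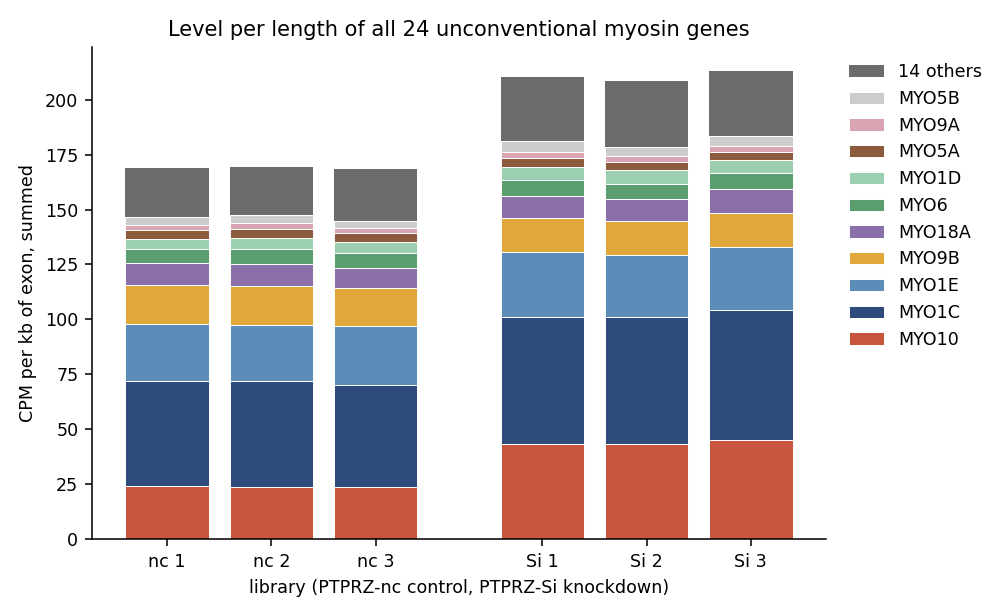
CPM per kilobase of exon, stacked over all 24 unconventional myosin genes, for each of the 3 PTPRZ-nc and 3 PTPRZ-Si libraries. The total was 168 to 169 in the controls and 208 to 213 in the knockdown, and the lowest block, MYO10, was 24.1 in the controls and 44.0 in the knockdown on average.

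Among the 15 other unconventional myosins, 6 had enough counts to test, and of these 2 rose and 1 fell. Over all tested genes, 27.4% passed in either direction. MYO5B, which works with RAB11 in apical recycling, rose from 37.3 ± 1.35 to 47.4 ± 4.45 CPM (SD, n = 3 each), with a log2FC of 0.35 (SE 0.074, edgeR, adjusted p = 0.00206). MYO5B rose while its relative MYO5A measured -0.04 on the same scale, and the difference between the pair was not tested. MYO18B was lower at about 1 CPM (log2FC -1.18, SE 0.40, adjusted p = 0.0373). That call was lost without any 1 of the 6 libraries (adjusted p from 0.0769 without knockdown library 2 to 0.122 without knockdown library 3), with no filter (0.0848) and with DESeq2 (0.104). MYO1F, MYO1G and MYO15A did not pass. The median of the 6 was 0.10. The remaining 9 genes had at most 60 counts over the 6 libraries, and MYO3A had 0, which allows up to 0.0282 CPM over all libraries. The mitochondrial motor MYO19 was listed at 2 counts in all, and most protein-coding genes around it were also listed at low counts, so this value is not read as silence.

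Of the class II heavy chains, which do form filaments, 5 were tested and 1 passed, with a median of -0.34. The share of all tested genes that passed in either direction was 27.4%. MYH9, the main non-muscle myosin II of these libraries, fell from 2238 ± 109 to 1768 ± 55.1 CPM (SD, 3 libraries each), with a log2FC of -0.34 (SE 0.037, edgeR, adjusted p = 2.64e-06). Its libraries measured 2201, 2360 and 2152 CPM in the controls and 1765, 1714 and 1824 CPM in the knockdown, with no overlap. MYH10 measured 56.1 and 51.2 CPM on average and did not pass (log2FC -0.14, adjusted p = 0.128). MYH3, MYH7B and MYH15, at 5 CPM or less, did not pass, and 9 of the 14 genes were not tested, 6 of them with 0 counts. MYH9 was the highest of all heavy chains per length in both groups, at 248 and 196 CPM per kilobase. Class II genes summed to 2301 ± 111 CPM for control libraries and to 1826 ± 55.0 CPM after the knockdown (SD, n = 3 each). In CPM, which takes no account of gene length, this exceeded the unconventional sum in all 3 control libraries. It was the smaller sum in all 3 knockdown libraries. Per kilobase of exon the order was the same, with means of 255.5 against 168.9 for controls and 202.7 against 210.6 after the knockdown. Per kilobase of coding length, the group means put class II below the unconventional genes in both groups. The order among the controls therefore depends on the length used.

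Light chains and calmodulin, which bind the neck or tail of myosins, were mixed. Of 11 tested genes 3 rose and 3 fell, with a median log2FC of -0.05. That is 54.5% of those tested, against 27.4% of all tested genes. CALM3, which encodes calmodulin, the light chain of MYO10 and of class I and V myosins, fell from 301 ± 11.6 to 213 ± 2.62 CPM (log2FC -0.50, SE 0.042, edgeR, adjusted p = 1.53e-07). CALM2, which also encodes calmodulin, measured -0.09 and did not pass. MYL6, the essential light chain shared by myosin II and several unconventional myosins, fell by 0.28 (SE 0.050, adjusted p = 0.000477), while its close relative MYL6B rose by 0.25 (SE 0.069, adjusted p = 0.0105, and 0.0581 without knockdown library 2). Without both libraries numbered 2, MYL6B did not pass either (edgeR, adjusted p = 0.073). MYL9, a regulatory light chain of myosin II, rose by 0.24 (SE 0.051, adjusted p = 0.00188). DYNLL2, the dynein light chain that also binds the MYO5A tail, rose by 0.22 (SE 0.054, adjusted p = 0.00537). CALML3 had 0 counts and CALML4 too few to test. Among the chaperones that fold the motor domain, UNC45A fell from 129 ± 13.5 to 101 ± 3.70 CPM (log2FC -0.34, SE 0.063, adjusted p = 0.000703), HSP90AA1 and HSP90AB1 did not pass, and UNC45B had 0 counts.

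Filopodia are the protrusions in which MYO10 works. Of 15 genes of their actin machinery 1 rose and 4 fell, with a median log2FC of -0.08. That is 33.3% of the list, against 27.4% of all tested genes. FSCN1, the fascin that bundles filopodial actin, measured 612, 594 and 580 CPM in the controls and 568, 553 and 574 CPM in the knockdown, without overlap, and did not pass (log2FC -0.08, edgeR, adjusted p = 0.141). The formins DIAPH3 and FMNL3, which elongate actin, fell by 0.38 (SE 0.075, adjusted p = 0.000984) and 0.41 (SE 0.099, adjusted p = 0.00467) on the log2 scale. EVL, of the Ena/VASP family, fell by 0.39 (adjusted p = 0.0284) with overlapping groups, and DIAPH1 fell by 0.14 (adjusted p = 0.0318). FMNL2, a formin of protrusions, rose by 0.15 (adjusted p = 0.0155). The calls of EVL, DIAPH1 and FMNL2 did not hold with each library left out. EVL did not pass without control library 3 (0.134) or knockdown library 1 (0.0972) or 2 (0.0939), and DIAPH1 not without control library 3 (0.0518), knockdown library 1 (0.0556), 2 (0.133) or 3 (0.0775), or with a replicate block (0.0531). Without both libraries numbered 2, EVL (0.101) and DIAPH1 (0.159) did not pass either. FMNL2 did not pass without control library 1 (0.0666) or knockdown library 1 (0.0614) or 3 (0.0689). VASP, ENAH, BAIAP2 and the other members did not pass, and CDC42, at 83 counts over the 6 libraries, is too thinly counted to read.

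Of 8 receptors that the MYO10 tail is known to bind, 6 were tested, and 3 integrin subunits passed. For comparison, 27.4% of all tested genes passed in either direction. ITGB1, the beta subunit shared by most matrix-binding integrins, fell from 1486 ± 18.8 to 1292 ± 26.3 CPM (SD, 3 libraries each), with a log2FC of -0.20 (SE 0.032, edgeR, adjusted p = 0.000136). ITGB5 fell by 0.16 (SE 0.045, adjusted p = 0.0148, and 0.0622 without knockdown library 2), and ITGB3 rose by 0.12 (SE 0.038, adjusted p = 0.0228). Without both libraries numbered 2, ITGB5 did not pass either (edgeR, adjusted p = 0.0582). ITGB3 did not pass without knockdown library 1 (0.103) or 3 (0.104). NEO1, BMPR1B and ACVRL1 did not pass, and DCC and CDH5 were not tested, CDH5 with 0 counts. The median of the 6 was 0.08.

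Of 9 cargo adaptors of MYO6, 2 rose and 1 fell, together 33.3%, against 27.4% of all tested genes. GIPC1, which links the motor to endocytic vesicles, rose from 122, 132 and 115 CPM in the controls to 210, 200 and 217 CPM in the knockdown, a log2FC of 0.77 (SE 0.053, edgeR, adjusted p = 1.64e-08). LMTK2, a membrane kinase that binds MYO6, rose from 87.2 ± 3.94 to 128 ± 7.75 CPM (log2FC 0.55, SE 0.055, adjusted p = 1.05e-06). OPTN, the autophagy receptor optineurin, fell from 172 ± 3.67 to 138 ± 3.72 CPM (log2FC -0.31, SE 0.044, adjusted p = 4.43e-05). The other 6 of 9 adaptors did not pass, and the count of 3 became 6 without control library 2. The median of the 9 was -0.02.

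With 27.4% of all tested genes passing in either direction, 1 of 12 tested adaptors of MYO5A rose and 2 fell. RAB27A, the GTPase that tethers it to melanosomes and secretory granules, fell from 43.4 ± 2.99 to 30.4 ± 3.17 CPM (SD, 3 libraries each), with a log2FC of -0.51 (SE 0.081, edgeR, adjusted p = 0.000156). RAB27B fell by 0.19 (SE 0.064, adjusted p = 0.0334). RAB27B did not pass without control library 1 (0.0943) or 3 (0.123) or knockdown library 1 (0.0929) or 3 (0.158). RAB10, which rides on class V motors in GLUT4 vesicles, rose from 520 ± 27.4 to 597 ± 1.11 CPM (log2FC 0.20, SE 0.040, adjusted p = 0.00126). The other 9 of 12 tested genes did not pass, melanophilin (MLPH) among them, MYRIP was not tested, and the median was -0.04.

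Among 12 partners of MYO1C and MYO1E, 1 rose and 4 fell, with a median log2FC of -0.03. That is 41.7% of the list, against 27.4% of all tested genes. DNM2, the dynamin that cuts endocytic vesicles and binds MYO1E, rose from 645 ± 14.3 to 886 ± 15.4 CPM (log2FC 0.46, SE 0.035, edgeR, adjusted p = 4.35e-08), and SYNJ1, the synaptojanin that binds MYO1E as well, fell by 0.33 (SE 0.079, adjusted p = 0.00463). Of the exocyst, EXOC5 fell by 0.22 (adjusted p = 0.0103) and EXOC3 by 0.16 (adjusted p = 0.0224), and RALB, a GTPase that engages it, fell by 0.15 (adjusted p = 0.0466). The calls of these 3 genes did not hold in every alternative. EXOC5 did not pass without knockdown library 3 (0.055), and EXOC3 not without knockdown library 1 (0.0519), 2 (0.0811) or 3 (0.077). RALB did not pass without control library 2 (0.118) or 3 (0.0657), knockdown library 1 (0.114), 2 (0.054) or 3 (0.181), with limma-voom (0.0503) or with DESeq2 (0.0551). Without both libraries numbered 2, EXOC3 (0.0869) and RALB (0.0666) did not pass either. The other 6 exocyst subunits and RALA did not pass.

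The partners of MYO9A, MYO9B and MYO18A gave 3 genes that rose and 1 that fell among 9 tested, with a median log2FC of -0.01. That is 44.4% of those tested, against 27.4% of all tested genes. RHOB, an endosomal GTPase, rose from 233 ± 9.64 to 373 ± 5.53 CPM (SD, 3 libraries each), with a log2FC of 0.68 (SE 0.042, edgeR, adjusted p = 3.2e-09). RHOA, the GTPase that MYO9B inactivates, fell by 0.17 (SE 0.044, adjusted p = 0.00855), and RHOC and the kinases ROCK1 and ROCK2 did not pass. CDC42BPA, the MRCK kinase that forms a complex with MYO18A, rose by 0.36 (SE 0.046, adjusted p = 1.78e-05), and its relative CDC42BPB did not pass. GOLPH3, through which MYO18A holds Golgi membranes, rose by 0.16 (adjusted p = 0.0391). GOLPH3 did not pass without control library 2 (0.114), without knockdown library 1 (0.137), 2 (0.0634) or 3 (0.126), without both libraries numbered 2 (0.065), or when scaled by library totals only (0.0591). GOLPH3L did not pass and LURAP1 had 0 counts.

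**Figure D4:**
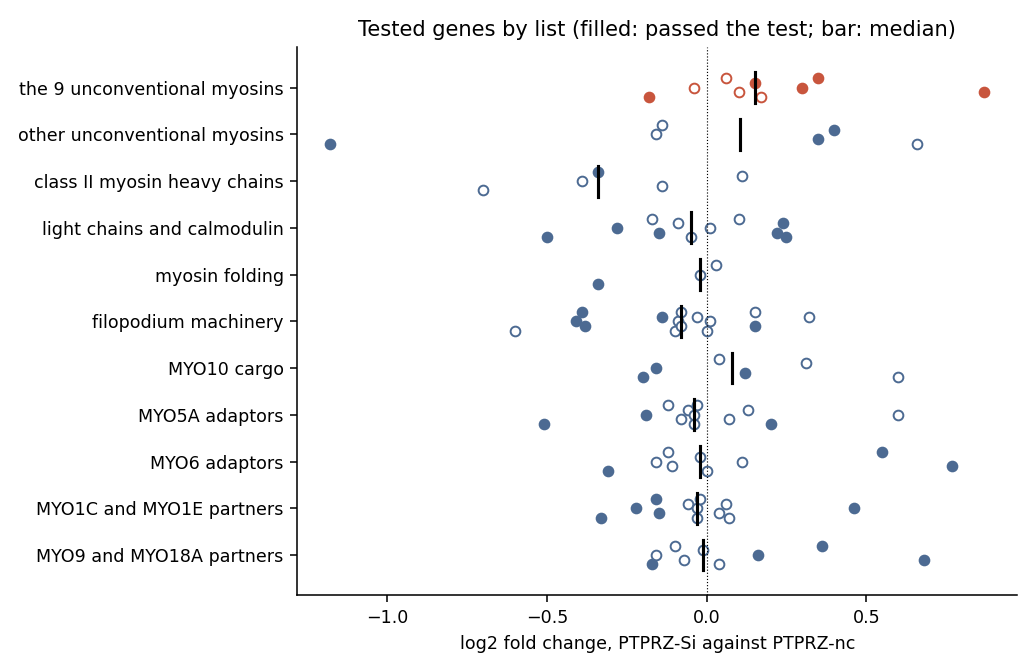
Log2 fold change of every tested gene of the 9 unconventional myosins (top row, red) and of the 10 lists around them (blue), PTPRZ-Si against PTPRZ-nc. Filled points passed edgeR's test at an adjusted p of 0.05 or less and the bar is the list's median; the median is 0.15 in the top row, and between -0.34 (class II heavy chains) and 0.10 (other unconventional myosins) in the other rows.

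Genes whose values over the 6 libraries lay nearest to those of MYO10 were sought among the 9692 tested genes that averaged 10 CPM or more, by the root mean square difference of log2 CPM after centring each gene. The 5 nearest were KCNJ16, a potassium channel of the kidney tubule (0.0432), HMOX1, haem oxygenase (0.0463), NEFL, a neurofilament chain (0.0473), CERK, the ceramide kinase (0.0483), and NFIA, a transcription factor (0.0523). KCNJ16 measured 91.3 ± 2.47 CPM in the controls and 163 ± 0.501 CPM in the knockdown, and NFIA 18.5 ± 1.02 and 33.8 ± 0.859 CPM (SD, n = 3 each). The 5 genes have log2FC values of 0.79 to 0.87, and over 6 libraries in 2 groups a gene with a difference of that size is near by construction. Ranking by Pearson correlation instead gave 5 other genes. Nearest to MYO9B were GRB10, an adaptor of the insulin receptor (0.0150), the golgin GOLGA2, B4GALNT1, FHIP1B and LGALS3BP, with log2FC values of -0.19 to -0.15.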

How the data were processed

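RNA-seq of 6 A498 libraries was used, 3 in each group, with groups and numbers taken from the labels. The deposited values are raw counts of read pairs per gene; per the file headers, the authors counted with featureCounts 2.0.1 in paired mode over exons, with the Ensembl release 107 annotation of GRCh38 and no strand option, and the submitters' processing notes name the build hg38. A gene name table gave symbols for 61757 of 61860 genes; GENCODE 29 gave 101 more, and all coordinates and lengths. edgeR 4.0.16 in R 4.3.3 kept 15476 genes with filterByExpr (99.82% of counts), scaled them by TMM and tested the groups, 2-sided, with glmQLFit and glmQLFTest and Benjamini-Hochberg adjustment over all of them; a gene passed where the adjusted p did not exceed 0.05. The fit was tested on simulated data. Library totals of 13726908 to 21469746 counts and a coefficient of variation of 5.53% beyond counting set the precision. No 2 libraries of a group agreed within sampling noise (chi-square of their counts, per degree of freedom, 2.16 to 6.26). Same-numbered libraries deviated together with correlations of 0.0226 to 0.0333, and differently numbered ones with -0.0234 to -0.00517. The main fit did not pair them. The members and lists were chosen with earlier results of these data known. Named are all 9 genes with every library, from each other list the genes that passed (at most 4 a direction) and up to 5 untested ones, and the 5 genes nearest to MYO10 and to MYO9B. FSCN1, MYH10, CALM2, CDC42, MYO19 and further genes that did not pass were named after their values were seen. Alternatives were RLE scaling, library totals, no filter, a mean of at least 5 CPM, a replicate block, leaving out each library or both numbered 2, limma-voom (limma 3.58.1), DESeq2 1.42.0, coding length and Pearson correlation. Amino acid sequences were not used here. Some single genes of the lists, though in their counts, are not reported here.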

Additional observations from a re-analysis of the deposited data

How the results depend on the processing

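Under the 14 alternatives to the fit no listed gene that passed changed direction. MYO10 kept a log2 fold change of 0.84 to 0.88, and MYO10, MYO1C, MYO1D and MYO9B passed under all 14. Leaving out 1 library at a time gave 2 to 5 genes that passed among the filopodium genes (5 with all libraries), 3 to 6 among the MYO6 adaptors (3) and 2 to 5 among the MYO1C and MYO1E partners (5). Without both libraries numbered 2 these counts were 3, 7 and 3. With coding length in place of exon length MYO10 held 13.23% of the summed level per length in the controls, against 14.28%. The 5 genes nearest to MYO10 and those by Pearson correlation shared 0. The main fit did not pair the libraries by replicate number. Each library correlated best with its own number, and these weak correlations do not settle whether the numbers pair them. With a replicate block 4101 genes passed in place of 4243, and 5 of the 9 myosins, as without it. Leaving out 1 library gave 3182 to 4425 genes. With 3 libraries in each group the fit is imprecise for genes near 1 CPM such as MYO18B, and the counts of other cell types' markers were too low to test most of them.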

Other observations

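MYO19, which moves mitochondria along actin, was listed at 2 counts over the 6 libraries. Of the 20 protein-coding genes within 500 kb of it on chromosome 17, 18 had under 100 counts, among them AATF, ZNHIT3 and PIGW, against 7706 of 19862 protein-coding genes (38.8%) in the whole table. CDC42, a GTPase that most cells express, had 83 counts, and 6 of the 10 protein-coding genes within 500 kb of it on chromosome 1 had under 100. These genes were looked at after their counts were seen, and why the counts are low was not tested.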
